A study of Mus musculus with 6 samples.

Results

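Astrocytes keep the fluid around neurons in order. They take up the glutamate released at synapses, convert it to glutamine, buffer potassium, move water and bicarbonate across their membranes, and share small molecules with each other through gap junctions. The 9 genes described here carry these functions: Slc1a2 and Slc1a3 (glutamate uptake), Glul (glutamine synthesis), Aqp4 (water), Gja1 and Gjb6 (gap junctions), Slc4a4 (bicarbonate), Aldh1l1 (folate metabolism) and Sox9, a transcription factor of astrocytes. They were matched by symbol to the Ensembl identifiers of the count tables, which list 54752 genes, and all 9 were among the 18617 genes with enough counts to be tested.

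The libraries come from the right hippocampus, taken whole, of 6 male wild-type (WT) mice of the strain C57BL/6 in the labels (C57BL/6 J in the methods of the study), with 1 library per mouse. The labels give a time of 14 weeks, which is read here as the age of the mice. Bilateral carotid artery stenosis (BCAS), a model of chronic cerebral hypoperfusion, was made in 3 mice by placing a microcoil around each common carotid artery, the narrower one on the right. The other 3 mice had a sham operation, with the same surgery and no microcoils, and tissue was taken 3 weeks after surgery in both groups. Mice are numbered by the labels, and inside the BCAS tables the columns carry the numbers 2 to 4 instead of 1 to 3. Each library thus holds RNA of all cell types of the hippocampus. Fewer cells of a type and less RNA per cell cannot be told apart in such samples, and the same is true of more cells and more RNA per cell.

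The libraries held 29652456 to 35607098 counts, so 3 counts, taken as the limit of detection, stood for 0.0875 to 0.0995 CPM, a gene's counts scaled to a common library size. This limit covers counting error only, and the 9 genes lay far above it. CPM were scaled with the TMM factors of edgeR, and the groups were compared by the quasi-likelihood test of edgeR with Benjamini-Hochberg adjustment over all tested genes. P values set the difference between the groups against the spread between these mice. The common biological coefficient of variation within groups, a single value over all tested genes, was 0.161. The mitochondrial share of the counts ranged over 6.90% to 6.99% in the sham group and 6.03% to 6.56% in the BCAS group.

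All 9 genes were higher in BCAS mice at an adjusted p under 0.05, by 1.25-fold for Slc4a4 to 3.19-fold for Aqp4, with a median log2 fold change of 0.65. Among all tested genes, 18.0% were higher by the same rule, 13.2% were lower, and the median log2 fold change was 0.02. The 9 genes are abundant, and among the 4851 tested genes with a mean CPM at least that of the lowest of them, Aldh1l1, 14.4% were higher and 32.5% lower, with a median of -0.14. The 3 BCAS mice lay above the 3 sham mice without overlap for each of the 9 genes, a pattern without overlap that 48.0% of tested genes showed in one direction or the other. Aqp4 was the 1 gene of the 9 that also passed an absolute log2 fold change of 1, the DEG thresholds, which 9.46% of tested genes passed. Together the 9 genes took 0.444% to 0.487% of the counts of a sham library and 0.685% to 0.725% of those of a BCAS library. The number of genes called was 5 without sham mouse 1 or without sham mouse 2, as compared with 9 in all 6 mice, while calls over all tested genes went from 5819 to 3902 and 4021.

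**Figure D1:**
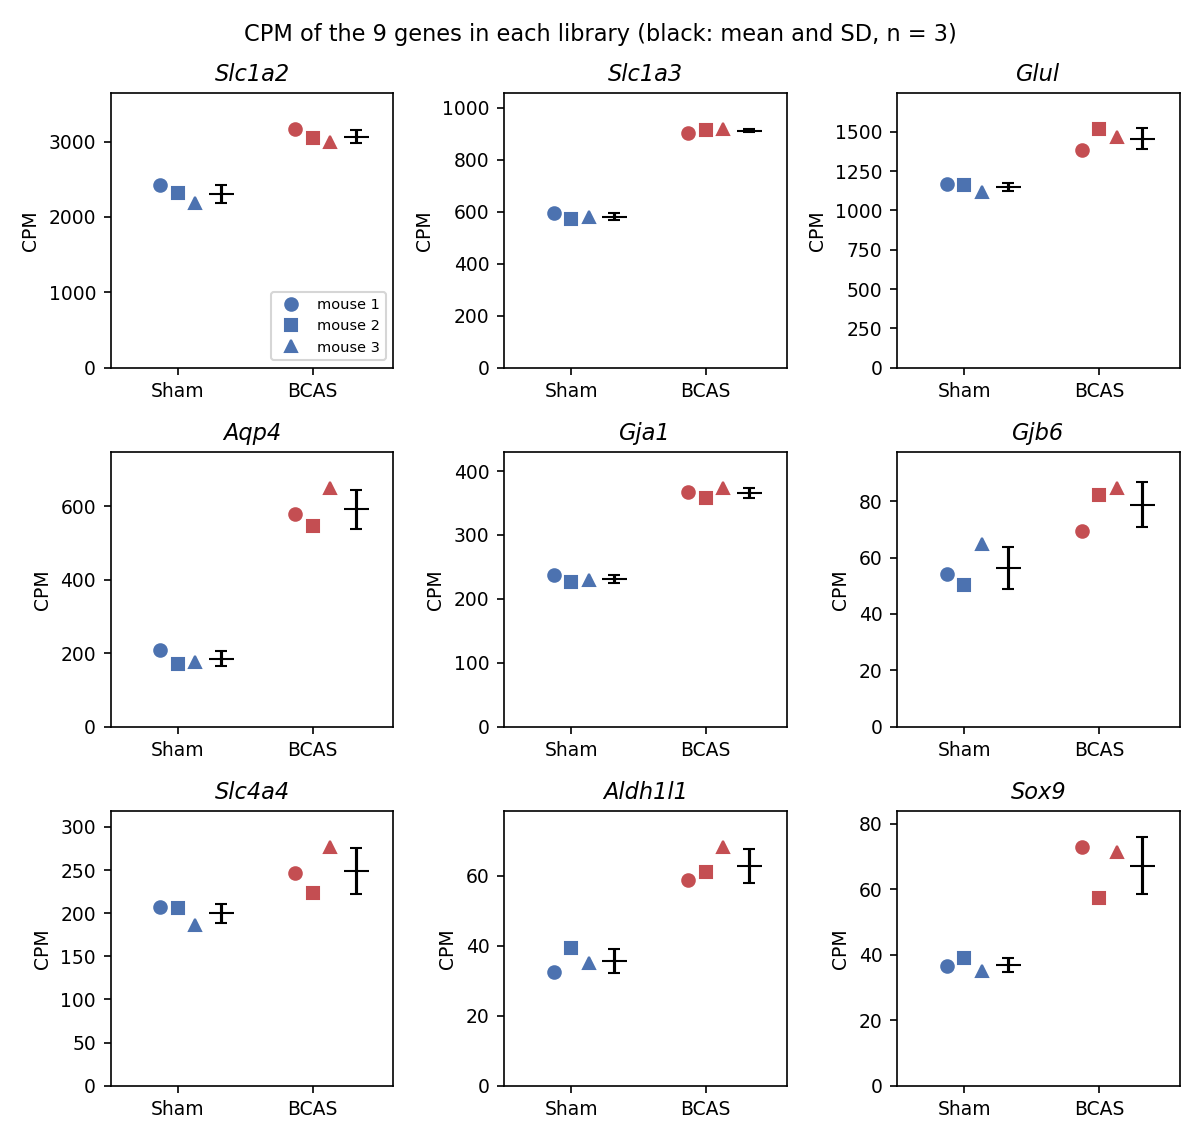
CPM of each of the 9 genes (linear vertical axes from 0) in the 3 sham mice (blue) and 3 BCAS mice (red), with the mean and SD of each group in black. The marker shape gives the number of the mouse within its group, and equal numbers in both groups are different mice. In each panel the lowest BCAS mouse lies above the highest sham mouse, with the widest gap, relative to the sham level, for Aqp4.

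Upstream sequences were taken from the RefSeq promoter table (GRCm38.p6, the assembly of mm10). Among the genes with an entry, the 3 with the largest folds are shown with the 250 bases before their RefSeq start. All 3 were higher in BCAS mice, and shared control of these genes was not tested. Of the 9 genes, 7 had an entry, with 8 windows in all, and Aqp4 and Sox9 had none. Each sequence runs 5′ to 3′ on the strand of the gene, and capitals mark matches, on either strand, to 5 motifs. TGANTCA was searched as the AP-1 motif, TTCNNNGAA as the STAT motif and ACAAT as the core of SOX sites. The CCAAT box was searched by its own letters and the nuclear factor I motif as TTGGC, which overlaps the box wherever a G precedes it. The windows are chr6:90550543-90550792 for Aldh1l1 (plus strand), chr10:56377050-56377299 for Gja1 (plus strand) and chr15:8710808-8711057 for Slc1a3 (minus strand).
Aldh1l1: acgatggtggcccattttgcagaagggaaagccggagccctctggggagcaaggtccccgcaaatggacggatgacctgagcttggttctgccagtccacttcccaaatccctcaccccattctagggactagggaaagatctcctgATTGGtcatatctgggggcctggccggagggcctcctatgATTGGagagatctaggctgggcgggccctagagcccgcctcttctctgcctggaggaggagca
Gja1: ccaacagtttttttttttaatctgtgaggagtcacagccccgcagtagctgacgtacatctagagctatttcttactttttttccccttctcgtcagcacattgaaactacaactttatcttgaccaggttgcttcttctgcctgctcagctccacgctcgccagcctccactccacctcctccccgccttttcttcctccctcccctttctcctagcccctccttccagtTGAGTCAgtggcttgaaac
Slc1a3: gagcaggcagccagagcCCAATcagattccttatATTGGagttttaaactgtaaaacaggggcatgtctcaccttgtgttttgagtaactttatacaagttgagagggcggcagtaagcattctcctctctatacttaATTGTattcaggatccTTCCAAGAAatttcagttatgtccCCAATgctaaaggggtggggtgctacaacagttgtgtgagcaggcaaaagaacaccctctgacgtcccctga

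The window of Gja1 held 1 AP-1 match, TGAGTCA, 19 to 13 bases before the start, a motif found in 6.75% of the 32851 promoter windows of this length. The window of Slc1a3 held 1 STAT match, TTCCAAGAA, 96 to 88 bases before the start (a motif in 7.02% of windows), 1 SOX match (27.7% of windows) and 3 CCAAT matches. Aldh1l1 held 2 CCAAT matches, a motif in 33.8% of windows, and its RefSeq start lies 64366 bases inside the gene span of the count tables. The start of the Slc1a2 window lies 47779 bases inside its gene span, and the 2 windows of Slc4a4 have starts 442 and 141148 bases inside, of which only the latter window holds the CCAAT match. No motif was shared by all 7 genes: CCAAT was found for 4 of them (Slc1a3, Glul, Aldh1l1, Slc4a4) and the nuclear factor I motif, in 41.5% of windows, for 3 (Slc1a2, Glul, Slc4a4). In Glul both CCAAT matches overlapped nuclear factor I motifs. The window of Gjb6 held none of the 5 motifs, which says only that these letters are not in this window. The matches are descriptions of sequence, and binding was not measured.

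A pair of transporters clears most synaptic glutamate. Slc1a2 encodes GLT-1, the main glutamate transporter of the adult forebrain, and Slc1a3 encodes GLAST, which is abundant in cerebellar and radial glia and is also made by hippocampal astrocytes. Slc1a2 (ENSMUSG00000005089.15, mm10 chr2:102658659-102790784, plus strand) measured 2420, 2321 and 2186 CPM in sham mice 1 to 3 and 3163, 3046 and 2988 CPM in BCAS mice 1 to 3. Its mean rose from 2309 ± 118 to 3066 ± 89.4 CPM (± SD, n = 3 mice per group), and its log2 fold change was 0.41 (SE 0.13, 95% interval 0.13 to 0.69, adjusted p = 0.0361). This call was lost without sham mouse 1 (adjusted p = 0.102), sham mouse 2 (0.118), sham mouse 3 (0.119) or BCAS mouse 1 (0.1), in a range of 4.71e-06 to 0.13 over 14 alternatives. Slc1a3 (ENSMUSG00000005360.14, mm10 chr15:8634124-8710764, minus strand) measured 594, 570 and 580 CPM in sham mice and 904, 915 and 917 CPM in BCAS mice. The groups lay far apart, and its SD relative to the mean was the smallest of the 9 genes in both groups. It rose from 581 ± 11.9 to 912 ± 6.85 CPM (± SD, n = 3 mice per group), and its log2 fold change was 0.65 (SE 0.09, 95% interval 0.45 to 0.85, adjusted p = 0.000861).

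Slc1a2 and Slc1a3 were compared per exonic length, in TPM, for which counts were divided by exonic length before scaling. Slc1a2 was the more abundant of the pair in every mouse, and its TPM was 2.58 ± 0.114 times that of Slc1a3 in sham mice and 2.19 ± 0.0801 times in BCAS mice (SD, n = 3 each). The log2 ratio was lower by 0.24 in BCAS mice (BCAS minus sham -0.24), without overlap between the groups. An exact two-sided permutation test gave p = 0.1, the smallest value that 3 mice against 3 allow.

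Glul encodes glutamine synthetase, which turns the glutamate taken up by astrocytes into glutamine. Glul (ENSMUSG00000026473.15, mm10 chr1:153899944-153909723, plus strand) measured 1167, 1159 and 1119 CPM in sham mice and 1386, 1516 and 1465 CPM in BCAS mice. The gap between the groups was wider than the spread within either of them. Its mean rose from 1148 ± 25.8 to 1456 ± 65.4 CPM (± SD, n = 3 mice per group), and its log2 fold change was 0.34 (SE 0.10, 95% interval 0.11 to 0.58, adjusted p = 0.0356). The call was lost without sham mouse 1 (adjusted p = 0.11), sham mouse 2 (0.119), sham mouse 3 (0.112) or BCAS mouse 1 (0.0644), in a range of 0.000182 to 0.12 over 14 alternatives. Exons of the genes Teddm2 and Mir8114 cover 3.49% of the exonic bases of Glul, and strand was not used in counting.

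Other genes of glutamate, GABA and amino acid handling moved in both directions. Of 17 listed genes, 7 were higher, 4 were lower and 6 did not pass, with a median log2 fold change of 0.07. Of the 4 other genes of the Slc1 family, 2 rose and 2 fell. Slc1a5, the neutral amino acid transporter ASCT2, rose from 2.87 to 9.53 CPM (log2 fold change 1.73, adjusted p = 0.00024). Slc1a1, the glutamate transporter EAAC1 of neurons, fell from 119 to 70.3 CPM (log2 fold change -0.75, adjusted p = 0.00122). Slc1a6, the transporter EAAT4 best known from Purkinje cells, fell from 9.45 to 6.09 CPM (log2 fold change -0.63, adjusted p = 0.0277). Slc1a2 and Slc1a3, which are mostly glial, and Slc1a1 and Slc1a6, which are mostly neuronal, had opposite signs in these libraries.

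Slc38a3, the SNAT3 transporter through which astrocytes release glutamine, measured 70.5, 85.5 and 59.3 CPM in sham mice and 141, 103 and 137 CPM in BCAS mice (log2 fold change 0.82, adjusted p = 0.00431). Slc7a11, the cystine and glutamate exchanger, rose from 68.0 to 119 CPM (log2 fold change 0.80, adjusted p = 0.00178), and Phgdh, the first enzyme of serine synthesis, rose from 80.0 to 105 CPM (log2 fold change 0.39, adjusted p = 0.00674). Got1, the cytosolic aspartate aminotransferase, fell from 332 to 239 CPM (log2 fold change -0.47, adjusted p = 0.00862). Slc6a11, the GABA transporter GAT-3 of astrocytes, did not pass, at 164, 161 and 176 CPM in sham mice and 152, 175 and 190 CPM in BCAS mice, with overlapping groups (log2 fold change 0.05, 95% interval -0.16 to 0.26, adjusted p = 0.738). Without BCAS mouse 3 its sign turned (log2 fold change -0.03).

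Aqp4 encodes aquaporin-4, the water channel of the astrocyte end-feet that surround blood vessels. Aqp4 (ENSMUSG00000024411.10, mm10 chr18:15389496-15410982, minus strand) measured 208, 171 and 177 CPM in sham mice and 579, 545 and 648 CPM in BCAS mice. The lowest BCAS mouse lay far above the highest sham mouse as compared with the spread in each group. Its mean rose from 185 ± 20.1 to 591 ± 52.8 CPM (± SD, n = 3 mice per group), and its log2 fold change was 1.67 (SE 0.11, 95% interval 1.42 to 1.92, adjusted p = 2.26e-05). By p value Aqp4 was number 92 among the 18617 tested genes.

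Aqp4 is held at the end-foot by the dystrophin complex and lies beside the potassium channel Kcnj10 (Kir4.1). Of 18 other genes of water, potassium and end-foot function, 7 were higher and the other 11 did not pass, with a median log2 fold change of 0.42. Kcnj10 measured 213, 186 and 173 CPM in sham mice and 248, 252 and 312 CPM in BCAS mice (log2 fold change 0.50, SE 0.11, adjusted p = 0.0108). This call was lost without sham mouse 3 (adjusted p = 0.0534, in a range of 0.00056 to 0.0534 over 14 alternatives). Of 5 genes of the dystrophin complex, 1 passed, Dag1 (dystroglycan), which rose from 109 to 136 CPM (log2 fold change 0.31, adjusted p = 0.0189).

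Mlc1, a membrane protein of astrocyte end-feet, rose from 185 ± 1.71 to 355 ± 17.3 CPM (± SD, n = 3 mice per group, log2 fold change 0.94, adjusted p = 4.94e-05). Hepacam (GlialCAM), which binds Mlc1, rose from 95.6 to 139 CPM (log2 fold change 0.54, adjusted p = 0.00125). Of 4 genes of the sodium pump and its FXYD regulators, 3 rose, among them Atp1b2, the glial beta subunit, from 398 to 634 CPM (log2 fold change 0.67, adjusted p = 0.000663). Fxyd1 (phospholemman) rose from 18.9 to 54.1 CPM (log2 fold change 1.52, adjusted p = 0.000542). The 3 other aquaporin genes on the list had a log2 fold change of 1.16 for Aqp1 (adjusted p = 0.417), 0.71 for Aqp9 (0.0664) and -0.35 for Aqp11 (0.0606). Aqp1 is a gene of the choroid plexus, and markers of that tissue varied widely between the mice, as given with Slc4a4.

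Gja1 and Gjb6 encode connexin 43 and connexin 30, the pair of connexins that form astrocyte gap junctions. Gja1 (ENSMUSG00000050953.10, mm10 chr10:56377330-56402513, plus strand) measured 238, 226 and 230 CPM in sham mice and 367, 357 and 373 CPM in BCAS mice. It rose from 231 ± 6.07 to 366 ± 8.05 CPM (± SD, n = 3 mice per group), and its log2 fold change was 0.66 (SE 0.07, 95% interval 0.50 to 0.83, adjusted p = 0.000249). Gjb6 (ENSMUSG00000040055.9, mm10 chr14:57123303-57133611, minus strand) measured 54.0, 50.3 and 64.7 CPM in sham mice and 69.5, 82.3 and 84.6 CPM in BCAS mice. The gap between sham mouse 3 and BCAS mouse 1 was narrow as compared with the spread within either group. Gjb6 rose from 56.3 ± 7.44 to 78.8 ± 8.11 CPM (± SD, n = 3 mice per group), and its log2 fold change was 0.48 (SE 0.11, 95% interval 0.23 to 0.74, adjusted p = 0.012). Its call was lost without sham mouse 1 (adjusted p = 0.0573) or sham mouse 2 (0.0525), in a range of 0.00112 to 0.0573 over 14 alternatives.

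The TPM of Gja1 was 1.08 ± 0.133 times that of Gjb6 in sham mice and 1.22 ± 0.137 times in BCAS mice (SD, n = 3 each). The groups overlapped in this ratio (log2 difference 0.17, exact two-sided permutation p = 0.5), so a shift between the connexins was not resolved with 3 mice a group. The difference was 0.07 without sham mouse 3 and 0.08 without BCAS mouse 1. Of 10 other connexin genes with enough counts to be tested, 3 were lower and 7 did not pass. They were Gjd2 (connexin 36, the connexin of neuronal electrical synapses), which fell from 6.68 to 4.38 CPM (log2 fold change -0.61, adjusted p = 0.0401), Gja3, which fell from 1.03 to 0.289 CPM (log2 fold change -1.83, adjusted p = 0.0154), and Gjd3, which fell from 1.25 to 0.588 CPM (log2 fold change -1.09, adjusted p = 0.0297). Gja3 and Gjd3 were near 1 CPM or below, a level at which few counts stand behind each value. Of 2 pannexin genes tested, Panx2 fell from 164 to 127 CPM (log2 fold change -0.36, adjusted p = 0.00651). Tjp1 (ZO-1), a scaffold protein that binds connexin 43, rose from 100.2 to 147 CPM (log2 fold change 0.56, adjusted p = 0.000462). Over all 13 tested genes of the connexin, pannexin and scaffold list, 1 was higher, 4 were lower and 8 did not pass, with a median log2 fold change of 0.01.

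Slc4a4 encodes NBCe1, the sodium bicarbonate cotransporter through which astrocytes regulate pH. Slc4a4 (ENSMUSG00000060961.14, mm10 chr5:88886818-89239653, plus strand) measured 207, 206 and 187 CPM in sham mice and 247, 223 and 276 CPM in BCAS mice. Its groups did not overlap, but BCAS mouse 2 was closer to sham mouse 1 than to BCAS mouse 1. The mean rose by 1.25-fold, to 249 CPM in BCAS mice, with an SD of 11.3 CPM in sham mice and 26.8 CPM in BCAS mice (n = 3 each). Its log2 fold change was 0.32 (SE 0.10, 95% interval 0.10 to 0.53, adjusted p = 0.0339). This call was lost without sham mouse 1 (adjusted p = 0.0791), sham mouse 2 (0.0866), sham mouse 3 (0.131), BCAS mouse 1 (0.074) or BCAS mouse 3 (0.0716), in a range of 0.012 to 0.131 over 14 alternatives. The summed CPM of 8 choroid plexus and ependyma markers, a tissue that lies against the hippocampus, was 994, 4059 and 87.6 in sham mice and 5899, 73.2 and 3206 in BCAS mice. In each group the mouse with the lowest sum was also the one with the lowest Slc4a4, and the same held for Sox9. The mouse with the highest sum was also the one with the highest Sox9 in both groups, and was not the one with the highest Slc4a4 in either. Of these 8 markers, 2 were higher in BCAS mice and 6 did not pass, none was at 0, and their part in the Slc4a4 and Sox9 results was not tested.

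Of 16 tested genes of bicarbonate, pH and lactate handling, 3 were higher, 1 was lower and 12 did not pass, with a median log2 fold change of 0.24. Slc16a1 (MCT1), a lactate transporter of endothelium and glia, rose from 60.0 to 105 CPM (log2 fold change 0.81, adjusted p = 0.00115), and Slc16a3 (MCT4), a lactate exporter, rose from 3.83 to 14.5 CPM (log2 fold change 1.92, adjusted p = 0.00078). Of 7 other Slc4 genes tested, 1 passed, Slc4a11, which went from 0.682 to 1.76 CPM (log2 fold change 1.37, adjusted p = 0.0356). Of 6 carbonic anhydrase genes, 1 passed, Car4, the membrane-bound form, which fell from 42.0 to 28.2 CPM (log2 fold change -0.58, adjusted p = 0.0154). Slc4a5, which did not pass, measured 9.50, 41.3 and 0.350 CPM in sham mice and 63.3, 0.199 and 35.9 CPM in BCAS mice. In both groups this was the order of the choroid plexus and ependyma sums given with Slc4a4. Slc4a2, Car12 and Car14, which did not pass either, followed the same order. The part of that tissue in the values of this list was not tested.

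Aldh1l1 encodes 10-formyltetrahydrofolate dehydrogenase, an enzyme of folate metabolism whose promoter is widely used to label astrocytes. Aldh1l1 (ENSMUSG00000030088.15, mm10 chr6:90486427-90600203, plus strand) measured 32.4, 39.4 and 35.0 CPM in sham mice and 58.9, 61.2 and 68.2 CPM in BCAS mice. The 3 BCAS mice all lay well above the 3 sham mice. It rose from 35.6 ± 3.51 to 62.8 ± 4.85 CPM (± SD, n = 3 mice per group), and its log2 fold change was 0.82 (SE 0.10, 95% interval 0.60 to 1.04, adjusted p = 0.000402). Exons of Gm45901 and Gm15756 cover 13.4% of the exonic bases of Aldh1l1, and counting did not use strand, so reads in these stretches cannot be given to one gene.

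Of 12 other tested genes of folate one-carbon metabolism, 3 were higher and the other 9 did not pass, with a median log2 fold change of 0.25. Aldh1l2, the mitochondrial counterpart of Aldh1l1, rose from 3.23 to 11.8 CPM (log2 fold change 1.87, adjusted p = 0.000325). Gldc, the decarboxylase of the glycine cleavage system, rose from 47.4 to 58.4 CPM (log2 fold change 0.30, adjusted p = 0.0192).

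Sox9 encodes a transcription factor of neural stem cells and astrocytes. Sox9 (ENSMUSG00000000567.5, mm10 chr11:112782224-112787760, plus strand) measured 36.4, 39.0 and 34.9 CPM in sham mice and 72.8, 57.2 and 71.5 CPM in BCAS mice. BCAS mouse 2 was the lowest of its group and still lay well above the sham mice. The mean rose from 36.8 ± 2.08 to 67.1 ± 8.65 CPM (± SD, n = 3 mice per group), and its log2 fold change was 0.87 (SE 0.10, 95% interval 0.63 to 1.11, adjusted p = 0.000443). Of 20 other transcription factors and regulators of the astrocyte lineage, 10 were higher and 10 did not pass, with a median log2 fold change of 0.23. Rfx4 rose from 16.4 to 30.1 CPM (log2 fold change 0.88, adjusted p = 0.000302), and Stat3, a factor activated by cytokines, rose from 49.6 to 102 CPM (log2 fold change 1.04, adjusted p = 0.00035). Of 4 Id genes, inhibitors of basic helix-loop-helix factors, 3 rose, among them Id3 from 39.9 to 77.0 CPM (log2 fold change 0.95, adjusted p = 0.000568) and Id4 from 88.1 to 128 CPM (log2 fold change 0.54, adjusted p = 0.000643). Of 6 other Sox genes 3 rose, and of 3 nuclear factor I genes 1 rose.

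**Figure D2:**
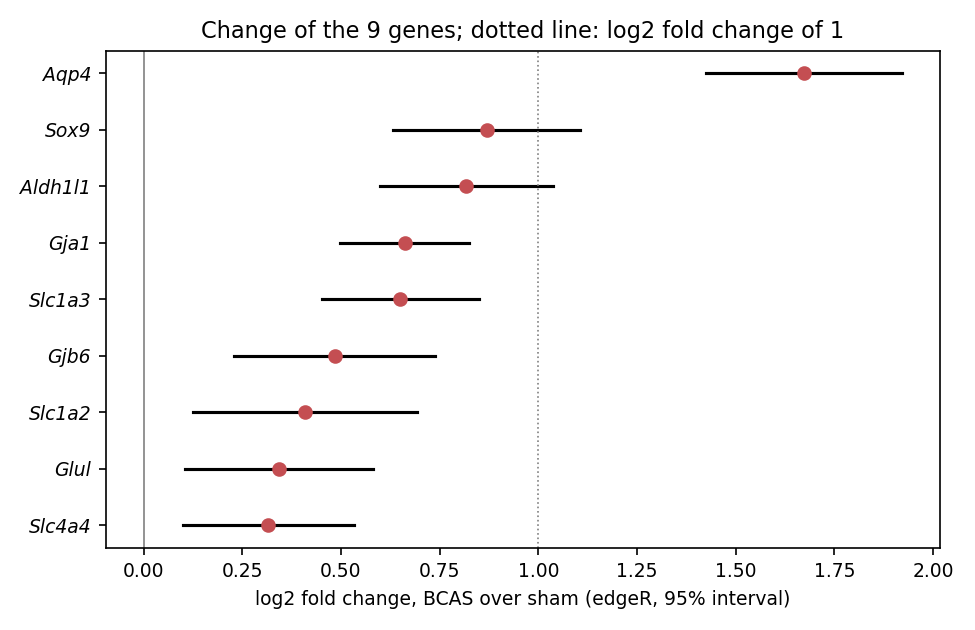
Log2 fold change of the 9 genes, BCAS over sham, from edgeR (points) with the 95% interval (bars), in order of size, and a dotted line at a log2 fold change of 1. The interval of Aqp4 (1.42 to 1.92) lies wholly above 1, those of Sox9 and Aldh1l1 reach just past it, and the interval of Slc4a4 (0.10 to 0.53) is the lowest.

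Over the 6 lists of other genes with these functions, 96 of 108 genes had enough counts to be tested, and 31 were higher, 9 were lower and 56 did not pass. Past both DEG thresholds were 6 up and 2 down of the 96. Of all 18617 tested genes, 1576 up and 186 down passed both (9.46%), a larger share. The number that passed in either direction, 40 with all mice, was 25 without sham mouse 1, a setting in which calls over all tested genes went from 5819 to 3902. By the adjusted p alone, the share that was higher was above the 18.0% of all tested genes. The share that was lower was below the 13.2%, while all of the 9 genes were higher.

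Per exonic length, the order of the 9 genes was the same in both groups. In sham mice Glul came first with a mean of 1169 TPM, followed by Slc1a2 (595 TPM), Slc1a3 (230.3 TPM), Aqp4 (101 TPM), Gja1 (76.3 TPM), Gjb6 (71.1 TPM), Slc4a4 (62.6 TPM), Sox9 (30.1 TPM) and Aldh1l1 (26.7 TPM). The sham ranges in TPM overlapped between Gja1 and Gjb6, between Gjb6 and Slc4a4, and between Sox9 and Aldh1l1. Within single sham mice, Gja1 was above Gjb6 in 2 of 3, Gjb6 above Slc4a4 in 2 of 3, and Sox9 above Aldh1l1 in 3 of 3. In BCAS mice the means were 1531 TPM for Glul, 816 for Slc1a2, 373 for Slc1a3, 332 for Aqp4, 125 for Gja1, 103 for Gjb6, 80.6 for Slc4a4, 56.9 for Sox9 and 48.6 for Aldh1l1. Aqp4 (298 to 371 TPM) had come up to the range of Slc1a3 (365 to 383 TPM) in these mice, while the ranges of these genes in sham mice were separate, and Slc1a3 was above Aqp4 in each mouse. The ranges of Sox9 and Aldh1l1 again overlapped, with Sox9 above Aldh1l1 in 3 of 3 BCAS mice. Even the lowest of the 9 genes was at percentile 68.1 of the tested genes by mean sham TPM, and Glul was at percentile 99.7.

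The 9 genes were next compared with 15 other astrocyte markers, of which 9 were higher and 6 did not pass, with a median log2 fold change of 0.35, and all 15 had a value above 0. None of the 15 was at 0 CPM, and their summed level was 1740 to 1822 CPM in sham mice and 2287 to 2365 CPM in BCAS mice. Examples were Ppp1r3c, a regulator of glycogen synthesis, which rose from 56.3 to 86.2 CPM (log2 fold change 0.61, adjusted p = 0.000363), Gpr37l1, a receptor of astrocytes, from 213 to 321 CPM (log2 fold change 0.59, adjusted p = 0.000479), Acsbg1, an acyl-CoA synthetase, from 141 to 207 CPM (log2 fold change 0.56, adjusted p = 0.000588) and F3, tissue factor, from 46.3 to 78.7 CPM (log2 fold change 0.77, adjusted p = 0.00059). Aldoc, the brain aldolase, did not pass, at 754.5, 768 and 823 CPM in sham mice and 904, 999 and 912 CPM in BCAS mice (log2 fold change 0.26, 95% interval 0.04 to 0.49, adjusted p = 0.073), although the groups did not overlap. The 15 markers had a mean log2 CPM of 5.98 in the sham and 6.36 in the BCAS group, a difference of 0.38. In a whole tissue this difference does not separate more astrocytes from more RNA of these genes per astrocyte.

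Relative to this mean, each gene was expressed as its log2 CPM minus the mean log2 CPM of the 15 markers in the same mouse. Among these markers, Slco1c1 measured 62.2, 97.8 and 59.6 CPM in sham mice and 114, 67.7 and 102 CPM in BCAS mice. In both groups Slco1c1 and Slc7a10 followed the order of the choroid plexus and ependyma sums given with Slc4a4. The part of that tissue in the mean of the markers was not tested. The difference between BCAS and sham mice relative to the marker mean was 1.29 for Aqp4, 0.48 for Sox9, 0.44 for Aldh1l1, 0.28 for Gja1 and 0.27 for Slc1a3, without overlap of the groups. For each of these 5 genes the exact two-sided permutation test gave p = 0.1, the smallest value possible with 3 mice against 3, and 0.18 after adjustment over the 9 genes. The difference was 0.11 for Gjb6 (exact p = 0.7), 0.03 for Slc1a2 (exact p = 1), -0.04 for Glul (exact p = 0.5) and -0.07 for Slc4a4 (exact p = 0.5), and their groups overlapped. With the median of the markers in place of the mean, the sign turned for Slc1a2 (-0.10) and Gjb6 (-0.03), and the difference was 0.15 for Gja1, 0.14 for Slc1a3, -0.17 for Glul, -0.20 for Slc4a4, 0.30 for Aldh1l1, 0.35 for Sox9 and 1.16 for Aqp4. The values near 0 also moved when 1 mouse was left out, for example that of Gjb6 to 0.003 without sham mouse 2 and 0.22 without sham mouse 3. With 3 mice a group this test cannot tell a gene that moved with the 15 markers from one that moved slightly more or less.

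**Figure D3:**
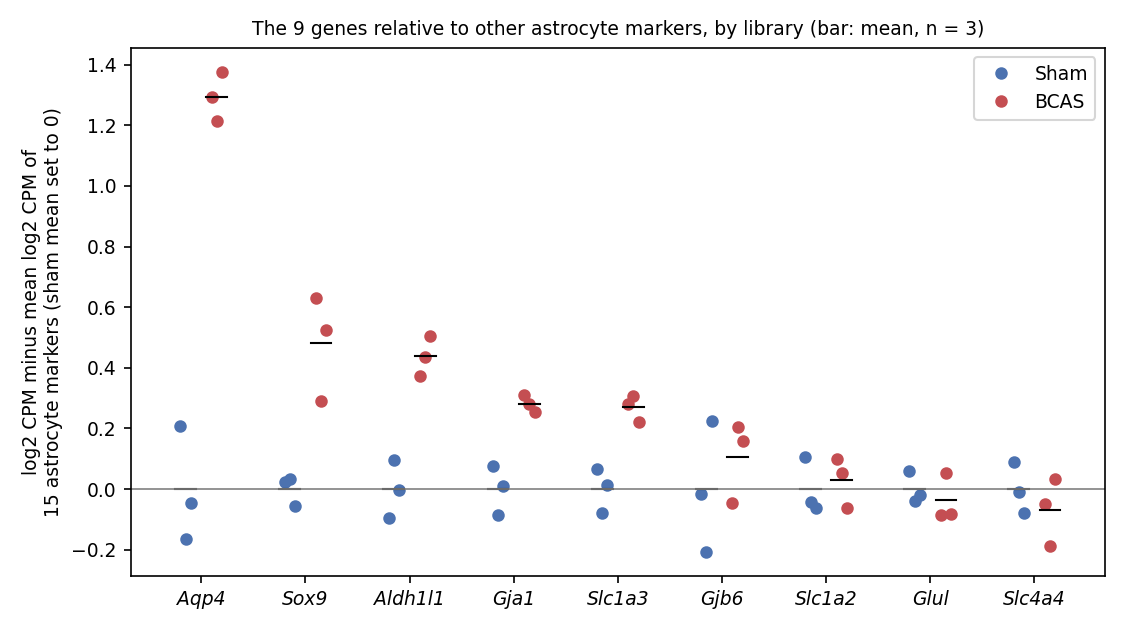
Log2 CPM of each of the 9 genes minus the mean log2 CPM of 15 other astrocyte markers in the same mouse (vertical axis, with the mean of the sham mice set to 0), for 3 sham mice (blue) and 3 BCAS mice (red), with group means as bars. Aqp4, Sox9, Aldh1l1, Gja1 and Slc1a3 lie above their sham values in every BCAS mouse, and the groups overlap for Gjb6, Slc1a2, Glul and Slc4a4.

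Markers of several other cell types moved with the groups as well. Of 18 genes known to rise in reactive astrocytes, 17 were higher and 1 did not pass, with a median log2 fold change of 2.66 and a summed level of 530.1 to 629 CPM in sham mice and 4425 to 5082 CPM in BCAS mice. Gfap, the intermediate filament protein of astrocytes, measured 427, 353 and 346 CPM in sham mice and 3924, 3448 and 3661 CPM in BCAS mice, a 9.80-fold rise (log2 fold change 3.29, SE 0.15, adjusted p = 7.25e-06). Vim, vimentin, rose from 57.4 to 399 CPM (log2 fold change 2.79, adjusted p = 2.09e-05), Serpina3n, a serine protease inhibitor, from 47.4 to 321 CPM (log2 fold change 2.76, adjusted p = 1.45e-05), and Aspg, an asparaginase, from 4.49 to 23.1 CPM (log2 fold change 2.36, adjusted p = 1.93e-05). The log2 fold change of Aqp4, 1.67, was thus below the median of this list, and those of the other 8 genes were below each of the 17 genes of the list that rose.

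All 10 microglia markers were higher in BCAS mice, with a median log2 fold change of 2.87 and a summed level of 356 to 374 CPM in sham mice and 2299 to 3760 CPM in BCAS mice. Of 10 neuron markers, 8 were lower and 2 did not pass, with a median log2 fold change of -0.61 and a summed level of 10984 to 11508 CPM in sham mice and 5793 to 8424 CPM in BCAS mice. Of 10 markers of hippocampal pyramidal and granule neurons, 6 were lower and 4 did not pass, with a median of -0.75 and sums of 1014 to 1079 and 500.1 to 685 CPM. Of 8 endothelial markers, 4 were higher and 4 did not pass (median 0.38, sums of 270 to 303 and 370.1 to 415 CPM). Of 7 pericyte and smooth muscle markers, 3 were higher and 4 did not pass (median 0.35, sums of 229 to 274 and 269 to 298 CPM), and of 6 meningeal fibroblast markers, 4 were higher and 2 did not pass (median 1.09, sums of 87.0 to 180 and 180 to 306 CPM). Of 6 markers of oligodendrocyte precursors, 2 were higher and 4 did not pass (median 0.13, sums of 335 to 370.0 and 374 to 453 CPM). Of 10 oligodendrocyte markers, 0 passed in edgeR, 1 had an unadjusted p under 0.05, and 1 passed in DESeq2 and 0 in limma-voom. Their log2 fold changes ran from -0.18 to 0.42 with a median of 0.07, and their sums were 5374 to 6602 CPM in sham mice and 6106 to 9233 CPM in BCAS mice. No marker of these lists was at 0 in all libraries. CPM are relative to the other RNA of a library, and the part of these other cell types in the rise of the 9 genes was not tested.

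**Figure D4:**
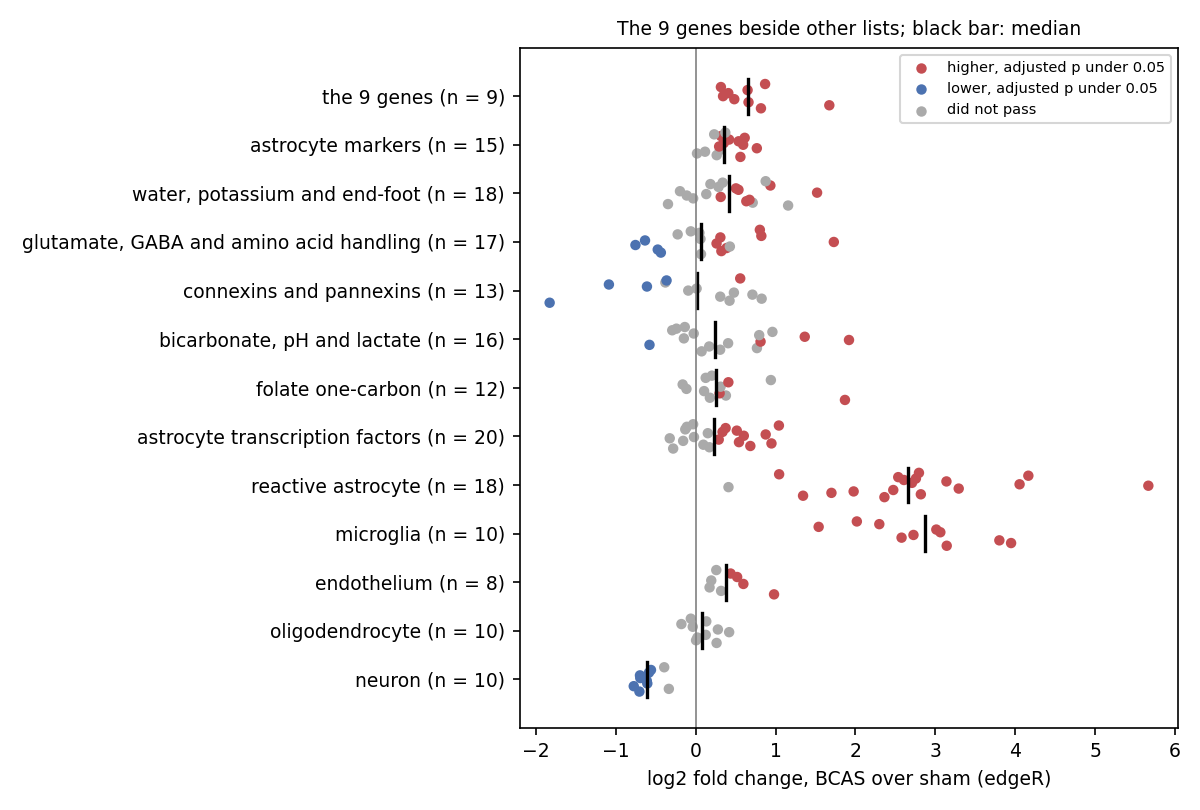
Log2 fold change, BCAS over sham, of each tested gene (points) in the 9 genes and in 12 other lists, with the list median as a black bar, and red or blue for genes higher or lower at an adjusted p under 0.05 by edgeR and grey for those that did not pass. The 9 genes have a median of 0.65, between the 0.35 of the astrocyte markers and the 2.66 of the reactive astrocyte list, and the neuron markers lie below 0.

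The mean profile of the 9 genes, each centred on its own mean log2 CPM, was -0.32, -0.35 and -0.36 in sham mice 1 to 3 and 0.32, 0.30 and 0.42 in BCAS mice 1 to 3. BCAS mouse 3 was the highest of its group for 6 of the 9 genes (Aqp4, Slc1a3, Gja1, Gjb6, Aldh1l1, Slc4a4), BCAS mouse 1 for Slc1a2 and Sox9, and BCAS mouse 2 for Glul. Among 10713 other genes with a mean of at least 10 CPM, those with the highest Pearson correlation with this profile over the 6 libraries were Anks1 (r = 0.9999), Rasal3 (0.9994), Plek (0.9994), Pnpla7 (0.9993) and Hmgn1 (0.9992). Their log2 fold changes ranged from 0.40 for Hmgn1 to 3.64 for Plek, a gene of blood and microglial cells. A correlation above 0.99 was reached by 270 genes, since the difference between the groups sets most of it, and the 6 libraries hold only these groups.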

How the data were processed

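RNA-seq libraries of the right hippocampus from 3 sham and 3 BCAS mice were used, and samples were grouped by their labels. The authors trimmed the reads with Trim Galore, aligned them with HISAT2 to mm10, used featureCounts for counting on genes, and deposited raw counts per gene without normalization or filtering. The file headers name featureCounts 2.0.3 with an annotation of GENCODE, while the submitters' processing notes name 1.6.3. By the headers, each mate counted as a read, counting was unstranded and multimapping reads were left out, so the values of near-identical copies can be too low and totals exceed the number of read pairs.

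Genes were kept by edgeR's filterByExpr, scaled by TMM and tested between groups by quasi-likelihood in edgeR 4.0.16 with no covariate (R 4.3.3; DESeq2 1.42.0 and limma 3.58.1 for alternatives). P values were adjusted by Benjamini-Hochberg over all tested genes. Log2 CPM used a prior count of 2. TPM were computed from the counts and the exonic lengths in the files. SE and 95% intervals come from the quasi-likelihood F statistic. A called gene had an adjusted p under 0.05, and DEGs also had an absolute log2 fold change above 1. Of 54752 genes, 54723 had a symbol. The steps were tested on simulated data.

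The 9 genes and all gene lists were chosen with earlier results of these data known. Named genes were the 9 genes, the examples with the smallest adjusted p in each direction of a list (at most 4), partner genes known from textbooks whatever their values (Kcnj10, Slc38a3, Slc6a11, Aldoc, Gfap, Vim, Serpina3n), and the 5 genes with the profile most like that of the 9. Some genes that this rule names are not reported here. Dag1, the genes of 3 other aquaporins, Gbp2, Slc4a5, Slc4a2, Car12, Car14, Slco1c1 and Slc7a10 were named after their values were seen. Alternatives were DESeq2, limma-voom, RLE size factors, library totals, 2 other filters, counts thinned to the smallest total, the replicate number as a block, and leaving out each mouse. The pathway list count under these alternatives was added after seeing the data.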

Additional observations from a re-analysis of the deposited data

How the results depend on the processing

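The 9 genes, the counts of called genes and the textbook partner genes were computed again under 14 alternatives, and the ratios and the values relative to astrocyte markers under 7. The other named genes and the marker lists were not run under all of them. Aqp4, Slc1a3, Gja1, Aldh1l1 and Sox9 were called in all 14, with log2 fold changes of 1.6 to 1.76, 0.63 to 0.73, 0.64 to 0.74, 0.75 to 0.90 and 0.81 to 0.96. The log2 fold changes of Slc1a2 (0.37 to 0.48), Glul (0.30 to 0.42), Gjb6 (0.41 to 0.59) and Slc4a4 (0.23 to 0.39) kept their direction, and their calls were lost in 5, 5, 2 and 6 alternatives. DESeq2, limma-voom, both other scalings, both other filters and thinning each called all 9 genes higher. Leaving out 1 mouse gave 5 (without sham mouse 1 or 2) to 9 genes (without BCAS mouse 2), and 25 (without sham mouse 1) to 49 pathway list genes (without BCAS mouse 2) as compared with 40. The sign of Slc6a11 turned without BCAS mouse 3, in a range of -0.0315 to 0.126 over the mice left out. For Slc1a2 relative to the astrocyte markers it turned without sham mouse 3 or BCAS mouse 1, in a range of -0.00461 to 0.0824, and with the median of the markers (-0.104), as it did for Gjb6 (-0.0277). The cause was not tested. Aldoc passed under DESeq2, limma-voom and library totals (adjusted p of 0.0127 to 0.222 over the alternatives). Library totals in place of TMM moved the median log2 fold change of all genes from 0.02 to 0.09. Replicate numbers did not mark pairs of mice: deviations from the group means correlated at 0.036, -0.314 and -0.158 for numbers 1, 2 and 3. With the replicate block, 6 of the 9 genes and 37 pathway list genes were called. Calls over all tested genes went from 5819 to 4532 under this block. Slc1a2, Glul and Slc4a4 then had an adjusted p of 0.13, 0.12 and 0.0807 by edgeR. Thinning varied depth only between 35607098 and 29652456 counts, so lower depths were not tried.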
